A study of Mus musculus with 6 samples.

Results

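The genes described here are 45 genes of the ATF4 and unfolded protein stress response, read by gene name from a deposited table of 41819 mouse genes. They were sorted by role into 5 lists: 5 transcriptional regulators, 9 feedback and stress target genes, 14 amino acid and one-carbon genes, 12 endoplasmic reticulum (ER) chaperone and unfolded protein response genes, and 5 mitochondrial chaperones and proteases. Of the 45, 44 stood in the table under their own name. Ddit3 is listed in 2 entries, and the entry of the main chromosomal gene (ENSMUSG00000025408) was taken by its identifier, whereas the second entry was listed at 0 in all 6 dishes. All samples were mouse 3T3 fibroblasts of a single clone transduced with a lentivirus that carries puromycin resistance and a doxycycline-inducible promoter in front of human PARG (hPARG) and the fluorescent protein mClover3. PARG is the glycohydrolase that breaks down poly(ADP-ribose). The 3 dishes of the hPARG group received 500 ng/ml doxycycline for 72 h and the 3 control dishes received none over the same time, and both groups carried the cassette. All dishes grew in RPMI medium with serum, with puromycin by the study's methods and with non-essential amino acids by the labels. RNA was measured by poly(A) RNA-seq, and the comparison asks which transcripts differ once hPARG is induced. No group with doxycycline and no hPARG was analysed here, so doxycycline and hPARG cannot be told apart, and cells of 1 clone do not show how other clones would respond. The labels describe wells of a 6-well plate whereas the study's methods describe 10 cm dishes, and they call the cells malignant in type. As the dishes are cultures of 1 clone, p-values measure only the spread between these dishes, which may be technical.

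The integrated stress response begins when a kinase that senses amino acid shortage, misfolded protein in the ER, haem shortage or viral RNA phosphorylates the translation factor eIF2. General translation then slows while the mRNA of ATF4, which carries upstream reading frames, is translated more, and ATF4 switches on genes for amino acid synthesis and uptake, one-carbon metabolism and feedback control. The unfolded protein response adds the sensors IRE1, which splices Xbp1 mRNA, and ATF6, which is cleaved, and both raise ER chaperones and degradation factors. Mitochondria have their own chaperones and proteases, and their stress is relayed to ATF4 in mammalian cells. Counts per gene measure the amount of mRNA, and neither the translation of Atf4 nor the splicing of Xbp1 can be read from them.

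Both arms read short DNA elements near the start of their targets, of which 3 were searched on both strands in the 250 bases before the RefSeq start of each gene (GRCm38.p6). These were the C/EBP-ATF response element (CARE, TGATGNAA), which ATF4 dimers bind, the ER stress response element (ERSE, CCAAT followed after any 9 bases by CCACG) and its variant ERSE-II (ATTGG, any base, CCACG), which shares its CCACG end with ERSE. Of the 45 genes, 39 had a RefSeq window. CARE letters stood in 8 of them (Asns, Atf3, Chac1, Herpud1, Nupr1, Pycr1, Slc7a11 and Vldlr) and in 3.45% of all 32851 windows. ERSE letters stood in 4 (Calr, Hsp90b1, Hspa5 and Pdia6) and in 0.113% of all windows, and ERSE-II letters in 1 (Herpud1) and in 0.0304%. A match is a description of the letters and not of binding. The following windows are shown because Nupr1, Pycr1 and Herpud1 are the members with a match whose counts stood furthest from 0 difference relative to their error, and Hspa5 is the classic ERSE gene. Each is written on the strand of the gene, 5′ to 3′, with the matched letters in capitals.
Nupr1, chr7:126625471-126625720, minus strand, CARE on the opposite strand: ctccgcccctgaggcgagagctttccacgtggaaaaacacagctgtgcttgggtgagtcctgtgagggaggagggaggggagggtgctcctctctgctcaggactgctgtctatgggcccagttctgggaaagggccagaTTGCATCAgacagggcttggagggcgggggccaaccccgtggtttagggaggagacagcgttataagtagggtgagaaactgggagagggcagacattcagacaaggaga
Pycr1, chr11:120643749-120643998, minus strand, CARE: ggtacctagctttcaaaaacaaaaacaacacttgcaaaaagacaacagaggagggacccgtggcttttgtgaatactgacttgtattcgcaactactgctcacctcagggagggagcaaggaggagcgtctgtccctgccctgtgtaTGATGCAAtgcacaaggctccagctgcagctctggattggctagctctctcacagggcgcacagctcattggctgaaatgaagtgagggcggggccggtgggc
Herpud1, chr8:94386179-94386428, plus strand, CARE on the opposite strand and then ERSE-II: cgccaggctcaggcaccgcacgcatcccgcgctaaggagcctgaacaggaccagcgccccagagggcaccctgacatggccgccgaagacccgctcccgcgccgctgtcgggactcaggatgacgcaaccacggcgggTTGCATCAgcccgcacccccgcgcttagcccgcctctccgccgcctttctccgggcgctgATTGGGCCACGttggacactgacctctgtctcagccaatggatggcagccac
Hspa5, chr2:34771840-34772089, plus strand, ERSE: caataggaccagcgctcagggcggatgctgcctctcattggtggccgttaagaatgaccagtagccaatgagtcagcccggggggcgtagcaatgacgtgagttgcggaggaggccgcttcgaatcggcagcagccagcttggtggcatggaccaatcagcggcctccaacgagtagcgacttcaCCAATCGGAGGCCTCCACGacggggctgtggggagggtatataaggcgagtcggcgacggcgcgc
The CARE began 110 bases before the start in Nupr1, 103 in Pycr1 and 112 in Herpud1. The window shown for Nupr1 lies inside the annotated gene, which runs to 126630861, so its distance holds for the RefSeq start only. The Hspa5 window runs past the annotated start of its gene at 34771970, and its ERSE lies beyond that start. Its place before the start therefore also holds for RefSeq only. The last bases of the Pycr1 window, but not its CARE, lie inside the annotated gene, which runs to 120643769. The windows of Trib3, Ddit3 and Atf4 held none of the 3 motifs, which says only that these letters are not in these windows.

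Count totals lay between 21619908 and 25263818 per dish. Values are given in CPM, the counts scaled to TMM-normalised library totals, and a floor of 3 counts corresponded to between 0.117 and 0.141 CPM, which covers counting error only. Of 10 fibroblast markers, 9 were above 1 CPM in every dish and Dcn was the exception. Their summed level was between 7216 and 8400 CPM in control and between 8306 and 9534 CPM in hPARG dishes. None of 6 epithelial and 5 endothelial markers reached 1 CPM in any dish, and of 6 immune markers Cd14 made up most of a sum between 6.96 and 11.5 CPM. Fewer cells of a type and less RNA per cell cannot be told apart in such samples. Both dishes numbered 2 stood apart from the other 4 by transcript length: the rank correlation of a gene's deviation with its exon length reached 0.53 for control dish 2 and 0.52 for hPARG dish 2, and between -0.51 and -0.25 in the other 4. Estimates of members described below that moved by over 1.5 times without these dishes are given with and without them where they lay at least 0.2 from 0. The human PARG transcript itself was not analysed here, as the table lists mouse genes.

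None of the 44 tested members passed the threshold of the test between hPARG and control dishes, which was fitted without a replicate block. With the replicate numbers of the labels as a block, Trib3, Ddit3, Pycr1 and Herpud1 passed it, as did 2.87% of all genes (closing section). The numbers were not taken to pair the dishes, so values below are from the fit without the block unless another fit is named. Estimates lay on both sides of 0, since 23 members had one below 0 and 21 one above 0, with a median log2 fold change (hPARG minus control) of -0.02 beside 0.00 over all 11509 genes tested. The 5 members with an unadjusted p under 0.05 were Trib3, Ddit3, Nupr1 and Herpud1, which had lower counts in hPARG dishes, and Pycr1, which had higher counts. Trib3, the feedback inhibitor of ATF4, was closest to the threshold (edgeR's quasi-likelihood test, FDR = 0.713, the Benjamini-Hochberg rate over all genes tested). DESeq2 also called 0 members, with a lowest adjusted p of 0.0822 for Trib3. Over all genes, edgeR called 10, which is 0.0869% of those tested. The 5 members are 11.4% of the 44, beside 3.95% of all genes at the same unadjusted threshold (1.42% higher and 2.54% lower). The count was 9 without control dish 1, 2 without control dish 3 and 3 without hPARG dish 3. The share over all genes was not counted in these fits, so these counts have no background beside them.

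In 8 of the 44 members (18.2%) the CPM values of the groups did not overlap, beside 9.62% of all genes. Of these, 6 were lower in hPARG dishes (Ddit3, Nupr1, Trib3, Chac1, Stc2 and Herpud1, beside 6.0% of all genes) and 2 were higher (Pycr1 and Pdia4, beside 3.61%). The 95% intervals show which sizes of difference the dishes leave possible. They lay within 1 log2 unit of 0 for 43 of 44 members, with Vldlr as the exception, and within 0.5 for 29. Standard errors ranged from 0.0903 (Atf5) to 0.509 (Vldlr), with a median of 0.142 beside 0.147 over all genes tested. Atf3, the stress-induced factor usually low in unstressed cells, was not tested, since it had between 0 and 3 counts in every dish, which is at or under the floor.

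**Figure D1:**
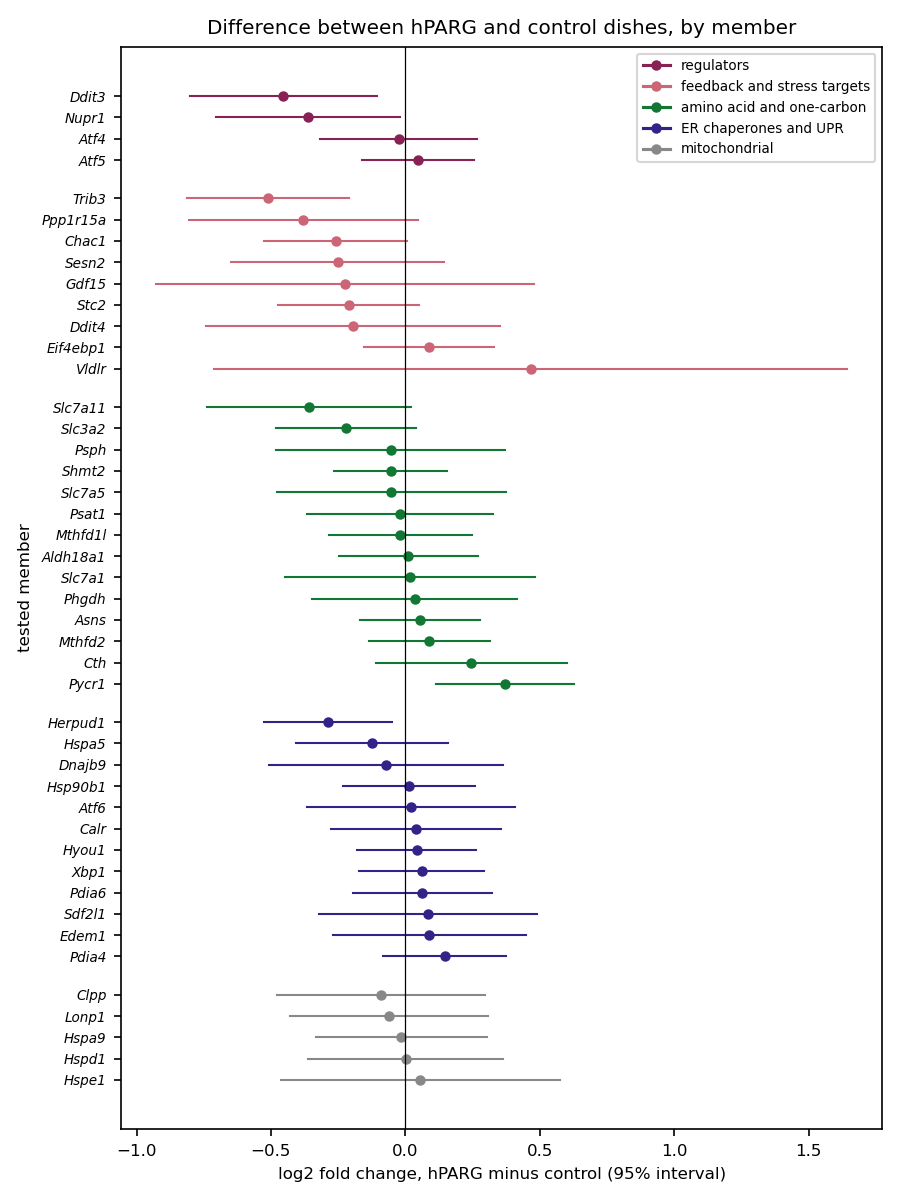
Log2 fold change of the 44 tested members (x axis, hPARG minus control, points) with its 95% interval (lines), grouped and coloured by list (y axis, gene symbols). The intervals of Ddit3, Nupr1, Trib3 and Herpud1 lie below 0 and that of Pycr1 above 0, and the other 39 include 0.

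Among the regulators, Atf4 mRNA was the most abundant per length and its values overlapped between the groups, while Ddit3 and Nupr1 had lower counts in hPARG dishes without passing the FDR threshold. Atf4 (chromosome 15, 80255184 to 80257541), the central activator of the response, had 402, 344 and 456 CPM in control dishes 1 to 3 and 413, 372 and 396 CPM in hPARG dishes 1 to 3. The hPARG values lay inside the range of the control values. The log2 fold change was -0.02 (95% interval -0.32 to 0.27, edgeR FDR = 0.999). Atf5, a related factor that responds to mitochondrial stress, ranged from 279 to 303 CPM over the 6 dishes, with a log2 fold change of 0.05 (SE 0.0903).

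Ddit3 (chromosome 10, 127290774 to 127296288) encodes CHOP, the factor that links prolonged ER stress to cell death. It had 52.1, 58.4 and 75.0 CPM in control dishes 1 to 3 and 44.6, 41.7 and 49.1 CPM in hPARG dishes 1 to 3. All 3 hPARG dishes were below the lowest control dish, and control dish 3 was the highest of the 6. The means were 61.9 ± 11.8 and 45.1 ± 3.74 CPM (SD, n = 3), and the log2 fold change was -0.45 (SE 0.15, 95% interval -0.80 to -0.11, edgeR unadjusted p = 0.0170, FDR = 0.981). Ddit3 shares 6.13% of its exon length with the second Ddit3 entry on the same strand, which held no counts. On the opposite strand it overlaps Gm4189 and Mars over 4.73% of its exon length. The use of strand in counting is not given in the sources used here. Nupr1 (chromosome 7, 126623249 to 126630861), a small stress-induced chromatin-associated protein, had 14.8, 18.1 and 21.2 CPM in control dishes 1 to 3 and 13.1, 14.6 and 14.2 CPM in hPARG dishes 1 to 3. The groups did not overlap, but hPARG dish 2 was only just below control dish 1. The log2 fold change of Nupr1 was -0.36 (SE 0.148, edgeR unadjusted p = 0.0398, FDR = 0.999). Its unadjusted p stayed under 0.05 in 2 of the 6 fits that left out 1 dish, and that of Ddit3 in 5 of 6. Without control dish 3 the log2 fold change was -0.29 for Ddit3 and -0.23 for Nupr1. The median log2 fold change of the 4 tested regulators was -0.19.

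The feedback and stress target genes had a median log2 fold change of -0.22 over 9 genes. Of the 9 estimates, 7 were below 0, beside 49.1% of all genes tested, a description over genes that share their libraries. One of the 9, Trib3, had an unadjusted p under 0.05, and none passed the FDR threshold. Trib3 (chromosome 2, 152337422 to 152344032) encodes a pseudokinase that is induced by ATF4 and CHOP and restrains both. It had 130.1, 159 and 178 CPM in control dishes 1 to 3 and 111, 114 and 103 CPM in hPARG dishes 1 to 3. Every hPARG dish was below every control dish, and the hPARG dishes lay closer together than the control dishes. The means were 156 ± 23.9 and 109 ± 5.81 CPM (SD, n = 3), which is 1.43-fold lower in hPARG dishes. The log2 fold change was -0.51 (SE 0.130, 95% interval -0.81 to -0.21, edgeR unadjusted p = 0.00462, FDR = 0.713). The unadjusted p of Trib3 stayed under 0.05 in all 6 fits that left out 1 dish.

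Chac1, which degrades glutathione, and Stc2, a secreted glycoprotein, were the other feedback and stress targets without overlap. Chac1 had 41.4, 44.8 and 52.7 CPM in control dishes 1 to 3 and 38.5, 39.2 and 38.3 CPM in hPARG dishes 1 to 3, with a log2 fold change of -0.26 (SE 0.114). Stc2 had between 8.73 and 9.25 CPM in control and between 7.38 and 8.07 CPM in hPARG dishes, with a log2 fold change of -0.21 (SE 0.113). Without control dish 3 the log2 fold change of Chac1 was -0.16. In both genes the distance between the groups was small beside that of Trib3. Ppp1r15a, which encodes the GADD34 subunit that directs the dephosphorylation of eIF2, had a log2 fold change of -0.38 (SE 0.184), with 39.2, 61.6 and 60.0 CPM in control dishes 1 to 3 and 38.4, 38.6 and 46.7 CPM in hPARG dishes 1 to 3. Control dish 1 lay among the hPARG dishes for this gene. The leucine sensor Sesn2, the mTORC1 inhibitor Ddit4 and the secreted stress hormone Gdf15 had log2 fold changes of -0.25, -0.19 and -0.22, with groups that overlapped. Without both dishes numbered 2 the estimate of Gdf15 was 0.04 and that of Ppp1r15a -0.21. The translational repressor Eif4ebp1 was at 273 ± 24.8 CPM in control and 289.7 ± 12.6 CPM in hPARG dishes (SD, n = 3), with a log2 fold change of 0.09 (SE 0.105). Vldlr, a lipoprotein receptor, lay between 0.377 and 1.79 CPM in the 6 dishes, and its log2 fold change of 0.47 had the widest interval of the members, -0.71 to 1.64. Without both dishes numbered 2 its estimate was 0.80.

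**Figure D2:**
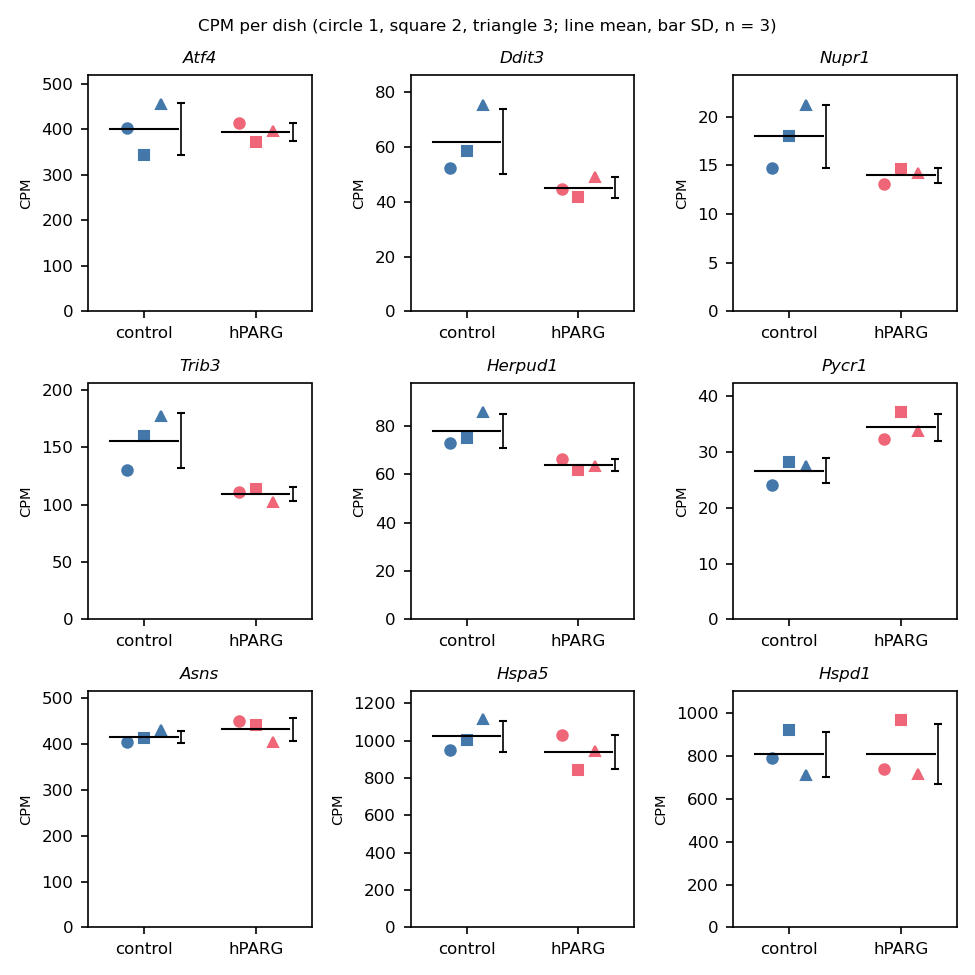
CPM per dish (y axis from 0) of 9 members in control and hPARG dishes (x axis), with circles, squares and triangles for dishes 1, 2 and 3, a line at the mean and a bar for the SD (n = 3). The groups are apart in Ddit3, Nupr1, Trib3, Herpud1 and Pycr1, and they overlap in Atf4, Asns, Hspa5 and Hspd1.

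The amino acid and one-carbon genes had 7 estimates above 0, 7 below 0 and a median log2 fold change of 0.00 over 14 genes. One had an unadjusted p under 0.05 and none passed the FDR threshold. Pycr1 (chromosome 11, 120635712 to 120643769), which makes proline in mitochondria, had 24.0, 28.3 and 27.6 CPM in control dishes 1 to 3 and 32.4, 37.1 and 33.8 CPM in hPARG dishes 1 to 3. All hPARG dishes were above all control dishes, and dish 2 was the highest in each group. The log2 fold change was 0.37 (SE 0.111, 95% interval 0.11 to 0.63, edgeR unadjusted p = 0.0104, FDR = 0.882), a 1.29-fold difference. Its unadjusted p stayed under 0.05 in all 6 fits that left out 1 dish. Aldh18a1, which performs the preceding steps of proline synthesis, averaged 189 ± 17.5 CPM without and 190.5 ± 14.9 CPM with induction (SD, n = 3), with a log2 fold change of 0.01.

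Asns (chromosome 6, 7675169 to 7693254), the asparagine synthetase gene through which amino acid control by ATF4 was worked out, had 405, 412 and 430.5 CPM in control dishes 1 to 3 and 450.1, 442 and 403 CPM in hPARG dishes 1 to 3. Dishes of both groups interleaved, and the log2 fold change was 0.05 (95% interval -0.17 to 0.28). The serine synthesis enzymes Phgdh, Psat1 and Psph had log2 fold changes of 0.03, -0.02 and -0.05. Phgdh, the first enzyme of this route, had 802, 637 and 894 CPM in control dishes 1 to 3 and 897, 669.9 and 822 CPM in hPARG dishes 1 to 3, so that dish 2 was the lowest of each group. Psph overlaps Cct6a on the opposite strand over 10.4% of its exon length, and the use of strand in counting is not given in the sources used here, so reads of the 2 genes there cannot be told apart. The mitochondrial folate enzymes Shmt2, Mthfd2 and Mthfd1l, which pass one-carbon units from serine to formate, had log2 fold changes of -0.05, 0.09 and -0.02. All 6 estimates of the serine and folate enzymes were within 0.1 of 0.

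Of the transporters, Slc7a11, the cystine-glutamate exchanger, and Slc3a2, the heavy chain that it shares with other amino acid transporters, had the lowest estimates of the amino acid list. Slc7a11 had 22.1, 30.8 and 29.9 CPM in control dishes 1 to 3 and 20.4, 25.0 and 19.2 CPM in hPARG dishes 1 to 3, with a log2 fold change of -0.36 (SE 0.164, edgeR unadjusted p = 0.0601). Slc3a2 had a log2 fold change of -0.22 (SE 0.112). In both genes at least 1 control dish lay within the hPARG range. The leucine carrier Slc7a5 and the cationic amino acid carrier Slc7a1 had log2 fold changes of -0.05 and 0.02, and dish 2 was the highest of each group in both. Cth, which makes cysteine from cystathionine, averaged 7.12 ± 1.02 CPM without and 8.43 ± 0.910 CPM with induction (SD, n = 3), with a log2 fold change of 0.25 (SE 0.154) that was 0.13 without both dishes numbered 2.

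The ER chaperone and unfolded protein response genes had a median log2 fold change of 0.04 over 12 genes. Of these, 9 estimates were above 0 and 3 below, where 49.1% of all genes tested were below 0. Herpud1, which helps to bring misfolded proteins to the ER degradation machinery, was the 1 gene of this list with an unadjusted p under 0.05, and none passed the FDR threshold. Herpud1 (chromosome 8, 94386438 to 94395377) had 72.9, 75.0 and 85.8 CPM in control dishes 1 to 3 and 66.4, 61.7 and 63.3 CPM in hPARG dishes 1 to 3. Its hPARG dishes were all below its control dishes, and the log2 fold change was -0.29 (SE 0.103, 95% interval -0.53 to -0.05, edgeR unadjusted p = 0.0238, FDR = 0.999). The unadjusted p stayed under 0.05 in 3 of the 6 fits that left out 1 dish. Herpud1 was also the member whose window held both a CARE and an ERSE-II.

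The transcripts of the ER sensor pathways, Xbp1 and Atf6, overlapped between the groups. Xbp1 (chromosome 11, 5520659 to 5525893) had 76.7, 76.0 and 78.3 CPM in control dishes 1 to 3 and 88.4, 76.1 and 76.3 CPM in hPARG dishes 1 to 3. Only hPARG dish 1 lay outside the control range, and the log2 fold change was 0.06 (95% interval -0.17 to 0.29). Atf6 had a log2 fold change of 0.02 (95% interval -0.36 to 0.41).

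Hspa5 (chromosome 2, 34771970 to 34777547) encodes BiP, the major Hsp70 chaperone of the ER and the usual readout of ER stress. It had 949, 1003 and 1114 CPM in control dishes 1 to 3 and 1027, 843 and 945 CPM in hPARG dishes 1 to 3. The groups overlapped, and the log2 fold change was -0.12 (95% interval -0.41 to 0.16, edgeR FDR = 0.999). The 4 genes with ERSE letters in their window (Hspa5, Hsp90b1, Calr and Pdia6) had log2 fold changes of -0.12, 0.01, 0.04 and 0.06. Hsp90b1 encodes the ER form of Hsp90, Calr the lectin chaperone calreticulin, and Pdia6 a protein disulfide isomerase. Hsp90b1 overlaps another gene on the opposite strand over 10.3% of its exon length, and Gm15344 and Gm25745 on the same strand over 5.38%. Pdia4, a further disulfide isomerase, had 209, 186 and 212 CPM in control dishes 1 to 3 and 235, 214 and 223 CPM in hPARG dishes 1 to 3, without overlap, and a log2 fold change of 0.15 (SE 0.0989). The remaining 4 genes, the nucleotide exchange factor Hyou1, the BiP cofactors Dnajb9 and Sdf2l1 and the degradation lectin Edem1, had estimates between -0.07 (Dnajb9) and 0.09 (Edem1).

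The mitochondrial chaperones and proteases were the list with the narrowest span of estimates, from -0.09 (Clpp) to 0.06 (Hspe1), with a median of -0.01 over 5 genes. None had an unadjusted p under 0.05 in edgeR and none was called by DESeq2. Hspd1 (chromosome 1, 55077835 to 55088243) encodes the chaperonin Hsp60, the standard marker of the mitochondrial unfolded protein response. It had 792, 921 and 712 CPM in control dishes 1 to 3 and 739.5, 969 and 718 CPM in hPARG dishes 1 to 3. Dish 2 was the highest of each group, and the log2 fold change was 0.00 (95% interval -0.36 to 0.36). Hspe1 (chromosome 1, 55088132 to 55091307) encodes the partner co-chaperonin Hsp10 and is divergently transcribed from the same region. It had 322, 246 and 426 CPM in control dishes 1 to 3 and 370.1, 265 and 397 CPM in hPARG dishes 1 to 3. Here dish 2 was the lowest of each group, the reverse of Hspd1, and Hspe1 has an exon length of 1474 bases whereas Hspd1 has 2642. The exons of both genes overlap on opposite strands over 7.6% of Hspe1 and 4.24% of Hspd1. Hspa9, the mitochondrial Hsp70, and the proteases Lonp1 and Clpp had log2 fold changes of -0.01, -0.06 and -0.09. Over the same dishes the 13 protein genes of the mitochondrial genome had estimates of 0.45 to 0.81 on the log2 scale, all above 0. Of these, 8 had an unadjusted p under 0.05, beside 1.42% of all genes that were higher at this threshold. None passed the FDR threshold in edgeR or DESeq2. As the 13 genes share their libraries, the count is a description and not a set of separate results. Without hPARG dish 3 the estimates of the 13 genes ran from 0.16 to 0.93, with 2 of 13 at an unadjusted p under 0.05. That number was 1 without control dish 1, 1 without control dish 2 and 12 without hPARG dish 1. The share over all genes was not counted in these fits. In hPARG dish 3 the level was highest for most of the mitochondrially encoded genes. One was mt-Co1, with 1433, 1702 and 1944 CPM in control dishes 1 to 3 and 1673, 2225 and 3045 CPM in hPARG dishes 1 to 3. The exceptions were mt-Nd6, with 132, 180 and 178 CPM in hPARG dishes 1 to 3, and mt-Atp8, with 14.3, 17.8 and 11.4 CPM. A difference between the mitochondrially encoded genes and the chaperones was not tested.

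Levels of different genes were compared per length, with the authors' deposited TPM, in which counts are divided by gene length and scaled to 1 total per dish. Members ranged from Atf3, with means of 0.0584 TPM in control and 0.0891 TPM in hPARG dishes, to Hspe1, with 950.1 and 953 TPM. Hspe1 had 929, 792 and 1129.8 TPM in control dishes 1 to 3 and 1002, 831 and 1027 TPM in hPARG dishes 1 to 3. Phgdh, the highest amino acid gene, had 921, 816 and 944 TPM in control dishes 1 to 3 and 966, 834 and 846 TPM in hPARG dishes 1 to 3. These 2 genes overlapped in TPM, so their order is not set apart by the spread between dishes.

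Calr, the highest ER gene, had 859, 785 and 816 TPM in control dishes 1 to 3 and 841, 797 and 796 TPM in hPARG dishes 1 to 3. Atf4, the highest regulator, had 520.5, 497 and 543 TPM in control dishes 1 to 3 and 502, 523 and 459 TPM in hPARG dishes 1 to 3. Eif4ebp1, the highest feedback and stress target, had 292, 319 and 309.5 TPM in control dishes 1 to 3 and 311, 334 and 298 TPM in hPARG dishes 1 to 3. In each of these 3 genes the dishes of both groups interleaved. Among the stress-induced members, means in control dishes were 173 TPM for Trib3, 156 TPM for Ddit3, 5.64 TPM for Gdf15 and 5.15 TPM for Stc2. Vldlr, at 0.240 TPM, and Atf3, at 0.0584 TPM, were lower still. Slc7a11, at 6.35 TPM, was the lowest amino acid gene, whereas its partner Slc3a2 was at 224 TPM. Summed over a list, the amino acid genes held between 3166 and 3459 TPM in control and between 2949 and 3298 TPM in hPARG dishes, and the ER genes between 2711 and 2950.1 and between 2527 and 2868 TPM. These sums overlapped between the groups.

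**Figure D3:**
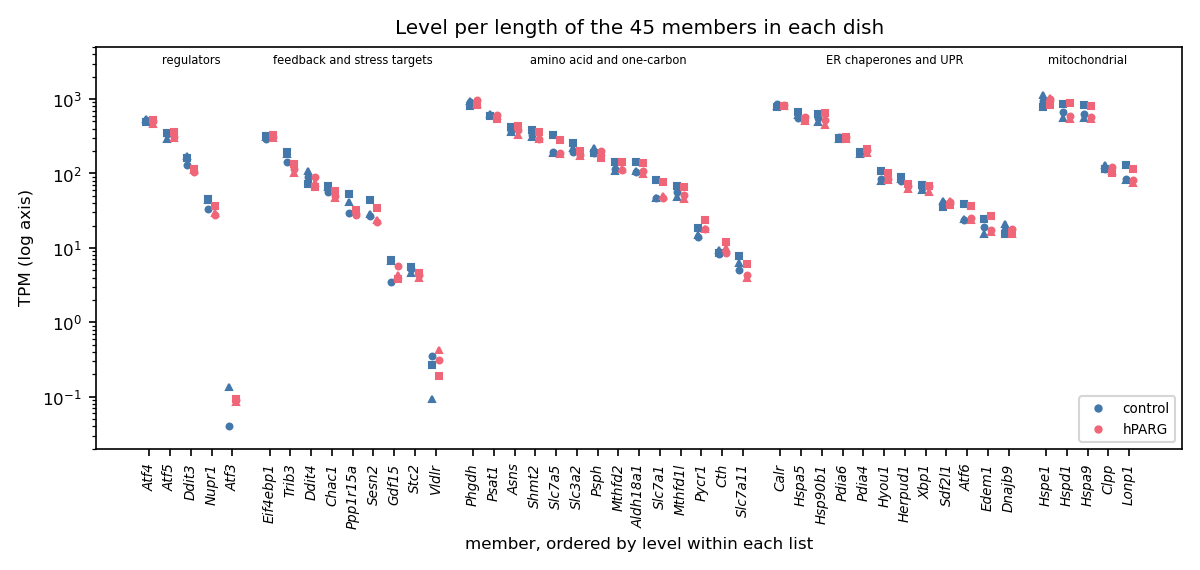
Level per length (y axis, TPM on a log axis) of the 45 members (x axis, ordered within each list) in each control (blue) and hPARG (red) dish, with circles, squares and triangles for dishes 1, 2 and 3 and values of 0 not drawn. Hspe1, Phgdh and Calr lie near the top at means of 950.1, 894 and 820.1 TPM in control dishes, and Atf3 and Vldlr lie under 1 TPM in every dish.

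The deviation of the dishes numbered 2 ran through the members by length as it did through all genes. The log2 CPM of dish 2 minus the mean of dishes 1 and 3 ranged from -0.65 (Ddit4) to 0.60 (Slc7a1) in control and from -1.17 (Vldlr) to 0.42 (Slc7a1) in hPARG dishes. Its rank correlation with exon length over the 44 tested members was 0.58 in control and 0.46 in hPARG dishes, a description over genes that share their libraries. Long members such as Slc7a1 (11530 bases), Atf6 (9231 bases) and Edem1 (6453 bases) stood higher in both dishes numbered 2, and short members such as Sdf2l1 (1108 bases), Hspe1 (1474 bases) and Ddit4 (1755 bases) stood lower. Vldlr, also long (10068 bases), went against this in hPARG dish 2, at -1.17 beside 0.35 in control dish 2, on counts between 8 and 39 per dish. Without both dishes numbered 2, 7 of 44 members (15.9%) had an unadjusted p under 0.05 beside 6.78% of all genes (3.48% higher and 3.3% lower). They were Pycr1 with a higher estimate and Ddit3, Nupr1, Trib3, Chac1, Herpud1 and Slc7a11 with lower ones, and 0 members passed the FDR threshold in edgeR, beside 0.345% of all genes. In this fit the log2 fold changes were -0.52 for Trib3, -0.43 for Ddit3, -0.39 for Nupr1, -0.29 for Herpud1 and 0.36 for Pycr1, within 0.03 of those with all dishes, whereas leaving out control dish 3 moved Ddit3 and Nupr1 by more.

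**Figure D4:**
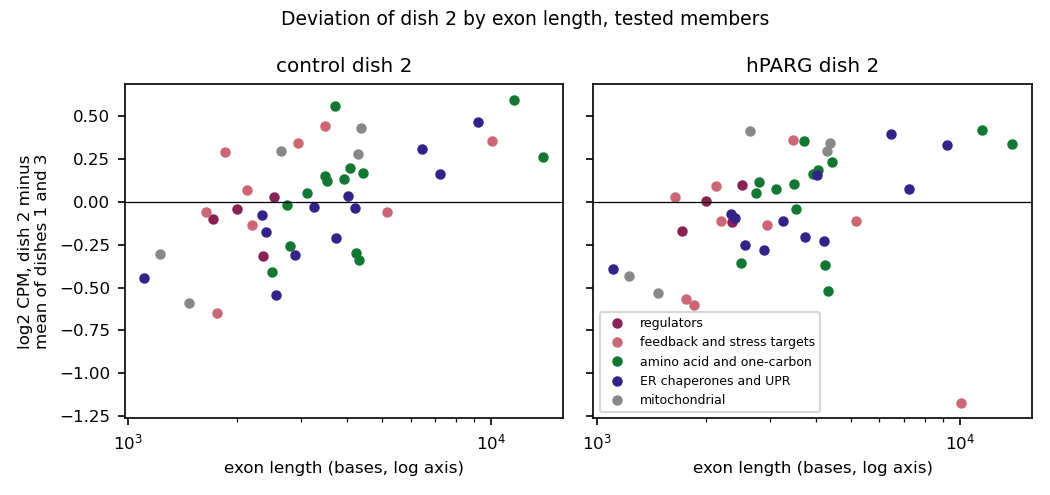
Log2 CPM of dish 2 minus the mean of dishes 1 and 3 (y axis) against exon length in bases (x axis, log axis) for the 44 tested members, coloured by list, in control (left) and hPARG (right) dishes. The rank correlations are 0.58 and 0.46, and Vldlr at -1.17 is the lowest point in the hPARG dishes.

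Other genes of the same pathways were read from hand-written lists that do not include the members. Of 36 further genes of the integrated stress response (kinases, aminoacyl-tRNA synthetases and other targets), 34 were tested, 0 passed the FDR threshold in edgeR or DESeq2, and 2 had an unadjusted p under 0.05, both lower in hPARG dishes. These were Cebpb, a dimer partner of ATF4, with 203, 192 and 191 CPM in control dishes 1 to 3 and 159, 142 and 111 CPM in hPARG dishes 1 to 3 (log2 fold change -0.51, SE 0.139), and Sqstm1, an autophagy receptor (-0.38, SE 0.108, DESeq2 adjusted p = 0.0574). Both had every hPARG dish below every control dish, and they were the only 2 of the 34 without overlap. Over all genes, 6.0% were lower without overlap, and 2.54% were lower at an unadjusted p under 0.05. Aldh1l2, a mitochondrial folate enzyme, came next with a log2 fold change of 0.33 (SE 0.158). The median of the 34 was -0.05.

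Of 30 further ER genes, 28 were tested, and of 16 further mitochondrial quality control genes all were tested. Neither list held a gene with an unadjusted p under 0.05 in edgeR, and DESeq2 called 0. The ER genes with the smallest p were the oxidase Ero1lb (0.30, SE 0.155), the calcium-handling Wfs1 (0.27, SE 0.164) and the BiP cofactor Dnajc3 (0.16, SE 0.0976), and the mitochondrial ones were the co-chaperone Dnaja3 (-0.15, SE 0.101), the protease Htra2 (-0.17, SE 0.123) and the protease Oma1 (0.30, SE 0.237), all as log2 fold changes. Of 18 cytosolic chaperone genes, 17 were tested and 0 passed the FDR threshold in either tool. Cryab, a small heat shock protein, was the 1 with an unadjusted p under 0.05, at 9.05 ± 1.52 CPM in control and 13.4 ± 0.976 CPM in hPARG dishes (SD, n = 3) and a log2 fold change of 0.56 (SE 0.149). Hspa8 and Dnajb1, the constitutive Hsp70 and its cofactor, followed with 0.19 (SE 0.143) and 0.18 (SE 0.141).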

How the data were processed

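Poly(A) RNA of 6 dishes was sequenced as paired-end reads, which the authors mapped to GRCm38 (Ensembl release 96) in CLC Genomics Workbench 12.0 allowing each read up to 10 hits. The authors deposited whole-number counts per gene without normalization, which were tested here, and TPM values scaled per dish, which were used for levels in place of RPKM. A further 12 deposited per-sample columns (RPKM and CPM) and 6 columns of the authors' own comparison (fold changes and p-values) were not used.

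Genes were filtered with filterByExpr (minimum count 10), normalised by TMM and tested without a block by edgeR 4.0.16 in R 4.3.3 (functions glmQLFit and glmQLFTest). Genes were called at an FDR under 0.05 over all genes tested, and the SE is the absolute log2 fold change over the square root of F. Values named in full belong to members with an unadjusted p under 0.05, the highest member of each list by TPM, and Atf4, Ddit3, Asns, Trib3, Xbp1, Hspa5 and Hspd1, while full values of further members were added after they were seen. For the other lists the 3 genes with the smallest p were named. The members and lists were chosen with earlier results of these data known. DESeq2 1.42.0 and the alternatives of the closing section were run besides, and the fits were tested on simulated data. Coordinates and exon lengths are from GENCODE M21 and promoters from RefSeq.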

Additional observations from a re-analysis of the deposited data

How the results depend on the processing

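The 15 alternatives gave 659 values for single members, of which 586 kept their direction and side of the FDR threshold, 65 turned sign, 8 came under the FDR threshold and 0 left it, and 21 members kept their sign throughout. Over all genes the number past FDR, 10, was 16 with no filter, 52 with DESeq2, 40 without both dishes numbered 2, 23 with a correction for exon length (spline with 4 degrees of freedom per dish) and 3 to 13 with 1 dish left out (3 without hPARG dish 1 and 5 without hPARG dish 3). The members with an unadjusted p under 0.05, 5 of 44, were 2 to 9 with 1 dish left out, where the share over all genes was not counted. The regulator median was -0.025 with no filter, which adds Atf3, and -0.25 to -0.10 with 1 dish left out (-0.10 without control dish 3).

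The replicate numbers were also tried as a block. Deviations of same-numbered dishes correlated at 0.08, 0.57 and 0.14, and control dish 1 correlated best with hPARG dish 3 (0.21), so the numbers were not taken to pair the dishes, although both dishes numbered 2 deviated together. With the replicate block 330 genes passed FDR (2.87%), and 376 with the length correction too. Under both, 4 members passed (Trib3, Ddit3, Pycr1 and Herpud1). Of the 44 tested members, 11 had an unadjusted p under 0.05 with the replicate block, beside 17.9% of all genes. With the length correction too, 12 had one, and the share over all genes was not counted in that fit.

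Estimates that turned sign were mostly near 0, with Gdf15 and Ddit4 as the exceptions. With library size only, Aldh18a1 was at -0.015, Slc7a1 at -0.010, Atf6 at -0.0061, Hsp90b1 at -0.013 and Hspd1 at -0.026. With the replicate block, Hspd1 was at -0.0044. Without both dishes numbered 2, Gdf15 was at 0.037, Psat1 at 0.0032, Slc7a5 at 0.034, Hsp90b1 at -0.024 and Hspd1 at -0.041. With the length correction, Atf4 was at 0.013, Slc7a1 at -0.024 and Atf6 at -0.0069. With the length correction and the replicate block, Atf4 was at 0.014, Slc7a1 at -0.018 and Atf6 at -0.0018. With 1 dish left out, the ranges were -0.053 to 0.081 (Aldh18a1), -0.14 to 0.25 (Slc7a1), -0.099 to 0.19 (Atf6), -0.15 to 0.11 (Hspd1), -0.090 to 0.15 (Phgdh), -0.10 to 0.051 (Mthfd1l), -0.18 to 0.16 (Slc7a5), -0.050 to 0.22 (Sdf2l1), -0.056 to 0.13 (Calr), -0.0033 to 0.13 (Pdia6), -0.12 to 0.28 (Hspe1), -0.12 to 0.085 (Hspa9), -0.18 to 0.10 (Lonp1), -0.12 to 0.079 (Atf4), -0.38 to 0.031 (Ddit4), -0.11 to 0.092 (Psat1), -0.16 to 0.10 (Psph), -0.041 to 0.077 (Hsp90b1), -0.23 to 0.13 (Dnajb9), -0.057 to 0.20 (Edem1), -0.20 to 0.048 (Clpp) and -0.015 to 0.097 (Xbp1). The cause was not tested. Atf3 was at or under the floor in every dish and was not tested.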
